A study of Homo sapiens and Canis lupus familiaris with 27 samples.

Results

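The genes described here are 10 factors of Aurora A dependent spindle assembly, namely AURKA, TPX2, HMMR, NUSAP1, ASPM, CKAP5, TACC3, CKAP2, DLGAP5 and NUMA1. They were taken by their symbol from the gene count tables of 3 prostate carcinoma cell lines. All 10 had an entry among the 23708 genes of the PC-3 and LNCaP tables, and 9 had one among the 16028 genes of the CT1258 table, which holds ASPM only as the protein entry name ASPM_CANFA. HMMR was chosen by its log2 fold change in CT1258 after 12 h. It was the largest rise among the genes that met the conditions given below with its values. The 12 h comparison of CT1258 is therefore given below as a description, with no p-value. Each entry, 10, 10 and 9 in the 3 tables, passed the filter on low counts.

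PC-3 is a human line from a bone marrow metastasis, LNCaP an androgen-sensitive human line from a lymph node metastasis, and CT1258 a line from a canine prostate adenocarcinoma. The cells received 15 µM PDA-66, an indolylmaleimide described as a microtubule destabilizer, for 12 h or 24 h, or 0.15% DMSO as vehicle, for which the labels give 24 h only. Each group had 3 samples, apart from the DMSO group of PC-3. There 2 were analysed, since the authors had excluded 1 as an outlier, so that 26 of 27 samples were used. Each line stands for 1 tumour, and the PDA-66 groups of a line share its DMSO samples. The 12 h comparisons thus set 12 h of PDA-66 against DMSO labelled 24 h. In them the drug and the time in culture cannot be told apart. The study's methods call the replicates independent biological ones. Poly(A) RNA was sequenced and the values below are CPM, that is counts relative to the total of a sample, scaled by TMM, which corrects the totals for differences in composition. A gene was called when the edgeR quasi-likelihood F test gave an adjusted p below 0.001, the threshold of the study, over all genes of the line.

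Aurora A, the kinase encoded by AURKA, drives centrosome maturation and bipolar spindle assembly. It is activated on spindle microtubules by TPX2, which importins hold inactive until Ran-GTP around the chromosomes releases it, and the hyaluronan-mediated motility receptor encoded by HMMR helps to place TPX2 at the poles. Downstream, TACC3 and the microtubule polymerase CKAP5 (chTOG) strengthen kinetochore fibres, DLGAP5 (HURP) and NUSAP1 bind and bundle microtubules near chromosomes, CKAP2 promotes microtubule growth, and ASPM and NUMA1 focus the minus ends at the poles. Most of these mRNAs are known to be made late in the cell cycle. In RNA from whole cultures, more cells in mitosis and more RNA of a gene per cell cannot be told apart.

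In the GENCODE annotation of GRCh37, the HG19 build of the human counts, the members lie apart from each other, AURKA at chr20:54944445-54967393 (minus strand), TPX2 at chr20:30327074-30389608 (plus), HMMR at chr5:162887209-162918947 (plus), NUSAP1 at chr15:41612992-41673248 (plus) and ASPM at chr1:197053251-197115824 (minus). CKAP5 lies at chr11:46764598-46867859 (minus), TACC3 at chr4:1714585-1746898 (plus), CKAP2 at chr13:53029564-53050763 (plus), DLGAP5 at chr14:55614830-55658326 (minus) and NUMA1 at chr11:71713910-71791739 (minus). All 10 are protein-coding, and the counts cover their exons. For 2 of them the counts are less certain. The canonical transcript of NUMA1 shares 49.3% of its exon bases with genes on the opposite strand, LRTOMT and IL18BP among them, and the sources do not state whether counting used the strand. LRTOMT itself had between 3.45 and 5.48 CPM in PC-3 and between 16.6 and 24.0 CPM in LNCaP. NUSAP1 shares 97.8% with the entry ENSG00000285920 on the same strand.

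Since 7 of the 8 members tested rose in CT1258 after 24 h, the sequence before the start of the human genes was examined. RefSeq promoters of GRCh38.p14 were at hand for 8 members, all but AURKA and TPX2, and the 250 bases before the start were searched on both strands for the cell cycle genes homology region (CHR, TTTGAA or its reverse complement TTCAAA) and the CCAAT box (CCAAT or ATTGG), letters that often occur in promoters of G2/M genes. The sequences shown are those of 3 members that hold both motifs (HMMR, DLGAP5 and ASPM), of TACC3, which holds neither, and of NUMA1, which was called in no tested comparison with DMSO. They run 5′ to 3′ on the gene's strand up to the base before the start, with motif letters in capitals.
HMMR lies on the plus strand at chr5:163460382-163460631, DLGAP5 on the minus strand at chr14:55191586-55191835, ASPM on the minus strand at chr1:197146670-197146919, TACC3 on the plus strand at chr4:1720381-1720630 and NUMA1 on the minus strand at chr11:72080543-72080792.
HMMR: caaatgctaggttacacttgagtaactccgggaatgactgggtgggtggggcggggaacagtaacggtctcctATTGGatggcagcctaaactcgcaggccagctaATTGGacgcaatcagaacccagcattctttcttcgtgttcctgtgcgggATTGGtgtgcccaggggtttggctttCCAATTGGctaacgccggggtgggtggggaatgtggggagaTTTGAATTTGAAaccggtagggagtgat
DLGAP5: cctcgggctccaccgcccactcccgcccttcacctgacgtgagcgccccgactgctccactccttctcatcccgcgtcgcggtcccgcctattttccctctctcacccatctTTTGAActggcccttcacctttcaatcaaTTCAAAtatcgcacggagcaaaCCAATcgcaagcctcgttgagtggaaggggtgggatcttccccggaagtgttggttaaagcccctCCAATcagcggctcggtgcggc
ASPM: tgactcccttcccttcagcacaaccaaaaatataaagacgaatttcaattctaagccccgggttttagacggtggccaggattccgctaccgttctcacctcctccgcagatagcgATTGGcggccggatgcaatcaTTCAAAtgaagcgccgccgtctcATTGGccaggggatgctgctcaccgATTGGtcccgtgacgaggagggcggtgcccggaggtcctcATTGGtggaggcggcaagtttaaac
TACC3: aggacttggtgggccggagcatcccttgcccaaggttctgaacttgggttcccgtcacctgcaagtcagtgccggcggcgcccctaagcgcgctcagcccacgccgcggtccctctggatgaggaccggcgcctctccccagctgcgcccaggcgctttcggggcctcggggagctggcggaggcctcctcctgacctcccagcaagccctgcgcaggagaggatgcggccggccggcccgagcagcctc
NUMA1: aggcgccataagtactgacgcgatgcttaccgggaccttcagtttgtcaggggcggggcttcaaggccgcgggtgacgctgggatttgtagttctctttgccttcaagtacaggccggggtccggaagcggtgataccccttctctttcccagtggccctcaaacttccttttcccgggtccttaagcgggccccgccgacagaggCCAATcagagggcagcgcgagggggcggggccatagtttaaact
Of the 8 members, 4 held the CHR letters (HMMR, DLGAP5, ASPM and CKAP5), compared with 13.3% of the 35116 promoters of the table. The CCAAT letters were in 6 members, the same 4 with NUSAP1 and NUMA1, compared with 32.0% of all promoters, and both motifs were in 4 members, compared with 4.69%. HMMR held 2 adjoining CHR copies, starting 28 and 22 bases before the start, and 5 CCAAT copies, of which a pair overlaps in opposite orientation. TACC3 and CKAP2 held neither. A match describes letters in this window, not a site that a factor binds.

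Total counts per sample ranged from 14650839 to 18091755 in PC-3, from 11923105 to 14741883 in LNCaP and from 7203534 to 20976950 in CT1258, where the DMSO samples held 2.64 times the counts of the PDA-66 samples. The biological coefficient of variation, estimated over all groups of a line, was larger in LNCaP (0.240) than in PC-3 (0.0971). The groups differed in this. The mean distance of a library from the others of its group, defined below with LNCaP, was 0.51 to 0.53 in LNCaP after 24 h. In PC-3 after 24 h it was 0.53 to 0.61. In DMSO it was 1.05 to 1.23 in LNCaP and 1.00 in PC-3. After 12 h it was 1.26 to 2.03 in LNCaP, largest for replicate 2, and 0.49 to 0.50 in PC-3. The means of the other LNCaP 12 h libraries include their distance to replicate 2. Epithelial markers summed to between 659 and 1039.9 CPM in PC-3 and between 1379 and 1819 CPM in LNCaP. CT1258 had at most 0.265 CPM of the epithelial marker EPCAM. The fibroblast markers went different ways in CT1258. LUM had between 265 and 429 CPM, COL1A2 between 10.6 and 87.1 CPM and COL1A1 at most 0.133 CPM, while DCN and PDGFRA have no entry. KRT8, KRT18, CDH1 and KRT19 have no entry in the CT1258 table, so the epithelial label of this line could not be checked further. Leukocyte markers summed to at most 2.29 CPM in every library. In CT1258 this was PTPRC alone, since CD3E, CD79A and CD14 have no entry there. Endothelial markers summed to at most 18.4 CPM in PC-3, 41.0 CPM in LNCaP and 8.88 CPM in CT1258, where PECAM1 has no entry.

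Without PDA-66, the members differed widely in level once transcript length was taken into account. As CPM per kilobase of the canonical transcript in DMSO, TPX2 was highest in PC-3 with 74.6 ± 10.6 (SD, n = 2), followed by NUSAP1 (50.5 ± 6.92), TACC3 (45.1 ± 6.32), AURKA (40.4 ± 15.5), CKAP5 (34.3 ± 5.93), NUMA1 (33.3 ± 7.59), DLGAP5 (28.1 ± 3.91), HMMR (25.7 ± 10.5) and CKAP2 (22.9 ± 4.94). ASPM was lowest with 3.04 ± 0.133. Between these ends, neighbours from NUSAP1 to CKAP2 differed by less than the larger of their SDs. In LNCaP, NUMA1 led with 85.3 ± 2.78 (SD, n = 3), CKAP5 followed with 43.2 ± 4.59 and ASPM was again lowest with 3.45 ± 1.27. The other 7 members lay between 17.8 (AURKA) and 33.3 (TPX2), with neighbours closer than the larger of their SDs.

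Compared directly, DMSO-treated LNCaP cells had less TPX2 than DMSO-treated PC-3 cells, with a log2 difference of -1.19 ± 0.26 (SE, adjusted p = 0.000679), and more NUMA1, with 1.33 ± 0.24 (SE, adjusted p = 0.000135). The CPM of TPX2 were 165, 121 and 61.3 in LNCaP and 233 and 285 in PC-3, and those of NUMA1 were 626, 625 and 591 and 278 and 201, with no overlap in either case. These 2 of 10 members were called, compared with 40.8% of all genes. In 17 fits that each left out 1 library, the call of NUMA1 was lost in 1, without PC-3 DMSO replicate 3, and that of TPX2 in 12, with log2 differences between -1.53 and -0.88.

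In PC-3, the activator TPX2 and 3 factors acting on microtubules, ASPM, TACC3 and DLGAP5, were higher after 12 h of PDA-66 than in DMSO. No member was called lower. These were 4 of 10 members, where 27.6% of the 13777 genes were called, and the median log2 fold change of the members was 0.56, compared with -0.01 for all genes. AURKA itself had CPM of 166, 157 and 153 after 12 h and 60.0 and 104 in DMSO. The 12 h samples all lay above the DMSO samples, but these were far apart, and the log2 fold change of 0.95 ± 0.24 (SE, adjusted p = 0.00448) missed the threshold.

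TPX2 had 401, 404 and 385 CPM after 12 h and 233 and 285 CPM in DMSO, a log2 fold change of 0.62 ± 0.11 (SE, adjusted p = 0.000511). ASPM, the pole-focusing protein, had 66.1, 64.6 and 60.5 CPM compared with 34.0 and 32.0, and its log2 fold change of 0.95 ± 0.10 (SE, adjusted p = 6.59e-06) was the largest called. Both genes separated the groups with no overlap. TACC3 had 201, 205 and 212 CPM compared with 114 and 139, a log2 fold change of 0.71 ± 0.14 (SE, adjusted p = 0.000829). DLGAP5, the Ran-controlled bundler of kinetochore fibres, had 142, 129.7 and 131 CPM compared with 73.1 and 89.0, a log2 fold change of 0.73 ± 0.13 (SE, adjusted p = 0.000304). In these 2 genes as well, every PDA-66 sample lay above the DMSO samples.

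The polymerase CKAP5 had 339, 359 and 344 CPM after 12 h and 276 and 216 in DMSO, and its log2 fold change of 0.50 ± 0.11 (SE, adjusted p = 0.00177) missed the threshold with no overlap between groups. HMMR had 111, 98.7 and 100.0 CPM compared with 55.1 and 100.0, so that 1 DMSO sample lay within the range of the PDA-66 samples, and the log2 fold change was 0.41 ± 0.20 (SE, adjusted p = 0.0929). The remaining members gave log2 fold changes of 0.31 ± 0.13 (SE, adjusted p = 0.0621) for CKAP2, 0.01 ± 0.13 (SE, adjusted p = 0.959) for NUSAP1 and -0.22 ± 0.13 (SE, adjusted p = 0.165) for NUMA1. The sign for NUSAP1 and NUMA1 changed with the settings given at the end.

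After 24 h, ASPM, CKAP5 and DLGAP5 were called higher in PC-3 with the same DMSO samples. These were 3 of 10 members, where 19.3% of all genes were called, and the median log2 fold change was 0.60. ASPM had 53.7, 58.7 and 51.6 CPM, a log2 fold change of 0.73 ± 0.10 (SE, adjusted p = 9.23e-05), DLGAP5 had 116, 151 and 141 CPM, a change of 0.75 ± 0.13 (SE, adjusted p = 0.000357), and CKAP5 had 362, 380.4 and 392 CPM, a change of 0.62 ± 0.11 (SE, adjusted p = 0.000502). TPX2 lay just above the threshold with 347, 395 and 424 CPM and 0.58 ± 0.11 (SE, adjusted p = 0.001002). The AURKA samples were further apart than after 12 h, with 85.0, 141 and 160.4 CPM, overlapped the DMSO range and gave 0.65 ± 0.24 (SE, adjusted p = 0.0386). The calls changed with the settings given at the end. In a fit with a replicate block and no 12 h samples, AURKA was called (0.93, adjusted p = 9.59e-05). In that fit ASPM (adjusted p = 0.00335) and CKAP5 (adjusted p = 0.00597) were not called. TACC3 gave 0.63 ± 0.14 (SE, adjusted p = 0.00232), HMMR 0.46 ± 0.20 (SE, adjusted p = 0.071), CKAP2 0.34 ± 0.13 (SE, adjusted p = 0.0435), NUSAP1 0.23 ± 0.13 (SE, adjusted p = 0.146) and NUMA1 -0.0011 ± 0.13 (SE, adjusted p = 0.995).

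Between 12 h and 24 h, no member was called in PC-3 by edgeR, compared with 1.41% of all genes. At an unadjusted p below 0.05 there was 1 of 10, compared with 24.5% of all genes, and limma voom called 1 at 0.001, where it called 16.8% of all genes. The log2 differences lay between -0.30 and 0.22. The counts of called members depended on single libraries. After 12 h, 6 were called without DMSO replicate 3 (23.8% of all genes), 2 without DMSO replicate 2 (30.9%) or without 24 h replicate 2 (23.1%), and 1 or 2 without 1 or another of the 12 h libraries (18% to 19.5%). After 24 h, 5 were called without DMSO replicate 3 (16.3% of all genes) and 1 without 24 h replicate 2 (11.3%) or 3 (15.8%). Where 1 DMSO sample was left, it was assumed to vary like the other groups.

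**Figure D1:**
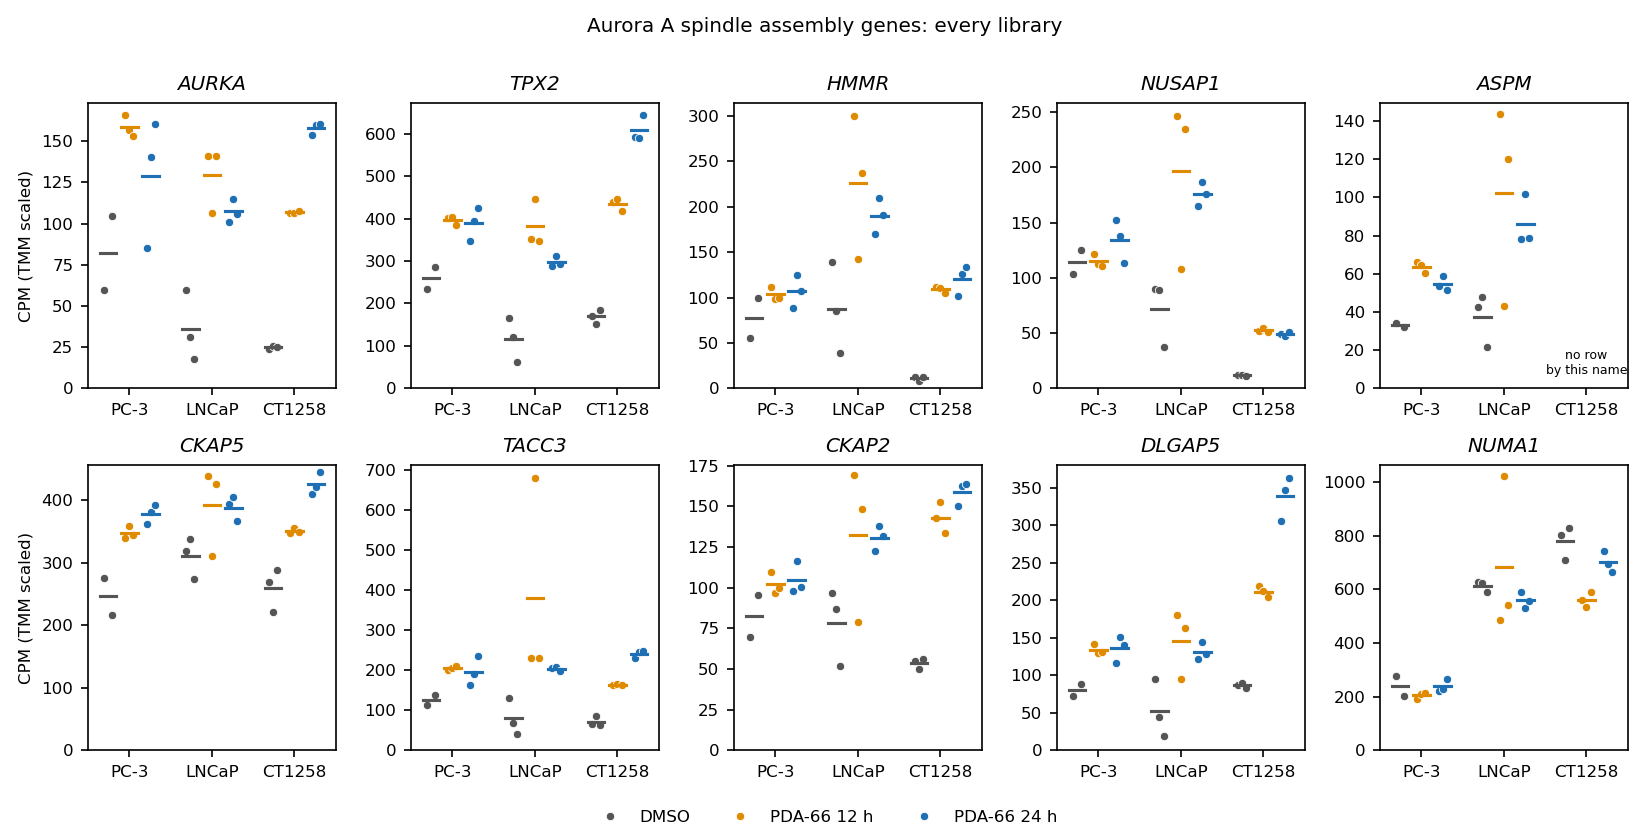
CPM of each member in each sample, on linear axes that start at 0, for PC-3, LNCaP and CT1258, with points for single samples and bars for the mean of each of the 3 groups of a line. The PDA-66 points of AURKA in CT1258, 106 to 161 CPM, lie far above the DMSO points at 24.2 to 25.6 CPM, while the DMSO points of LNCaP are spread out, for DLGAP5 from 19.5 to 94.8 CPM.

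In LNCaP, the libraries have to be described before the results. The 3 DMSO libraries differed in the members. DMSO replicate 1 had 4.87 times the DLGAP5 CPM of replicate 3, 3.54 times the HMMR, 3.33 times the AURKA and 3.14 times the TACC3, but 1.16 times the CKAP5 and 1.06 times the NUMA1. Of the members, 6 of 10 differed by more than 1 on the log2 scale between these 2 libraries, compared with 2.53% of all genes. PDA-66 12 h replicate 2 stood apart from the other 12 h libraries. It held 2.95 times their mean TACC3, 1.99 times their NUMA1 and 1.28 times their TPX2, but 0.325 times their ASPM, 0.450 times their NUSAP1 and 0.495 times their CKAP2. Between it and that mean, 4 of 10 members and 23.9% of all genes differed by more than 1 on the log2 scale. The distance of a pair of libraries was taken as the root mean square of their 500 largest log2 differences. For replicate 2, the mean distance from the other samples of its group was 2.03, compared with 1.26 and 1.32 for the other 12 h libraries. The values of 1.26 and 1.32 each include the distance to replicate 2. The members' changes against DMSO in LNCaP are therefore given below with and without 12 h replicate 2. For the comparison of the times and the response differences, some values are given with all libraries only. The calls of TPX2 and NUMA1 in the DMSO comparison were also made without it.

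**Figure D2:**
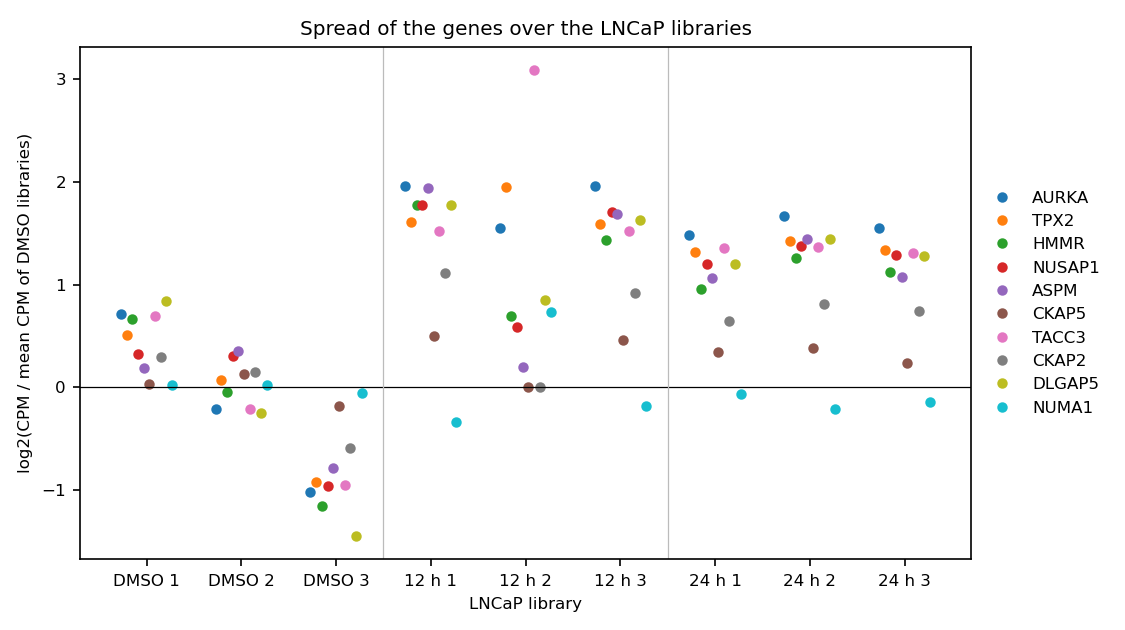
CPM of each member in the 9 LNCaP libraries relative to the mean of the 3 DMSO libraries, on a log2 axis. DMSO replicate 3 lies below the other DMSO libraries for all 10 members, least so for CKAP5 and NUMA1, and 12 h replicate 2 lies above the other 12 h libraries for TACC3, NUMA1 and TPX2 and below them for the other 7 members.

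After 12 h of PDA-66, 0 of 10 members passed 0.001 in LNCaP, where 1 of 13156 genes did (0.0076%). At an adjusted p below 0.05, the kinase AURKA, its activator TPX2, its substrate TACC3 and the bundler NUSAP1 were higher, 4 of 10 members compared with 9.14% of all genes. The members' median log2 fold change of 1.45 compared with 0.03 for all genes. Unadjusted p-values were below 0.05 for 8 members and 30.0% of all genes, and at 0.001 limma voom called 8, where it called 13.9% of all genes. The DESeq2 Wald test and the edgeR likelihood ratio test called 3 each, where they called 4.71% and 4.34%. Without the library that stood apart, 9 of 10 members passed 0.05 and 0 passed 0.001, where 29.1% of all genes passed 0.05.

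AURKA had 141, 107 and 141 CPM after 12 h and 59.7, 31.3 and 17.9 CPM in DMSO, a log2 fold change of 1.84 ± 0.36 (SE, adjusted p = 0.0177), or 1.96 ± 0.34 (SE, adjusted p = 0.00267) without 12 h replicate 2. TPX2 had 352, 447 and 348 CPM compared with 165, 121 and 61.3, a change of 1.72 ± 0.30 (SE, adjusted p = 0.0124), or 1.60 ± 0.28 (SE, adjusted p = 0.00302). The 12 h samples of these 2 genes lay above all DMSO samples. TACC3 had 230.4, 681 and 230.4 CPM compared with 130.0, 69.4 and 41.5. Its change of 2.24 ± 0.50 (SE, adjusted p = 0.0257) rested in part on replicate 2, without which it was 1.52 ± 0.33 (SE, adjusted p = 0.00742).

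NUSAP1 had 247, 108 and 234 CPM after 12 h compared with 90.1, 88.7 and 37.1, a log2 fold change of 1.45 ± 0.37 (SE, adjusted p = 0.0421), or 1.74 ± 0.28 (SE, adjusted p = 0.00188) without 12 h replicate 2. HMMR had 299.8, 142 and 237 CPM compared with 139, 85.0 and 39.3, a change of 1.37 ± 0.41 (SE, adjusted p = 0.0666), or 1.62 ± 0.36 (SE, adjusted p = 0.00876). ASPM had 144, 42.9 and 120.4 CPM compared with 42.6, 48.1 and 21.8, a change of 1.45 ± 0.42 (SE, adjusted p = 0.062), or 1.82 ± 0.26 (SE, adjusted p = 0.0011). In the library that stood apart, ASPM, CKAP2 and CKAP5 lay within the DMSO range, while in the other 12 h libraries they were above it. DLGAP5 gave 1.47 ± 0.47 (SE, adjusted p = 0.0804), or 1.70 ± 0.43 (SE, adjusted p = 0.0151), CKAP2 0.75 ± 0.30 (SE, adjusted p = 0.134), or 1.02 ± 0.20 (SE, adjusted p = 0.00528), and CKAP5 0.34 ± 0.17 (SE, adjusted p = 0.202), or 0.48 ± 0.11 (SE, adjusted p = 0.0079). NUMA1 changed its sign, from 0.15 ± 0.25 (SE, adjusted p = 0.705) to -0.25 ± 0.09 (SE, adjusted p = 0.0595).

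With all libraries, 6 members had all 12 h samples above all DMSO samples and 0 had them below, compared with 13.5% and 14.6% of all genes. Without 12 h replicate 2 these were 9 above and 1 below, with 24.7% and 26.1% of all genes. Other libraries mattered as well, since 0 members passed 0.05 without DMSO replicate 2 (2.25% of all genes), 2 without DMSO replicate 3 (1.85%) or 24 h replicate 3 (4.2%), 3 without 12 h replicate 1 (12.6%) or 3 (4.45%) or without 24 h replicate 1 (4.51%) or 2 (4.67%), and 6 without DMSO replicate 1 (12.6%). A fit of the 12 h and DMSO samples alone gave 0, where 0.0231% of all genes passed.

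After 24 h, TPX2 was the member that passed 0.05 in LNCaP in the quasi-likelihood test, with 289, 311 and 292 CPM, close together and above the DMSO samples, and a log2 fold change of 1.36 ± 0.30 (SE, adjusted p = 0.0459). No member passed 0.001, and 0.0% of all genes did, while 2.92% passed 0.05. Unadjusted p-values were below 0.05 for 8 members and 19.8% of all genes, and at 0.001 limma voom called 8 and the DESeq2 Wald test 0, where they called 11.2% and 2.17% of all genes. At 0.05, with all libraries, voom called 9 members (37.3% of all genes), the Wald test 3 (8.68%), the likelihood ratio test 3 (8.19%) and edgeR with no filter 2 (2.34%). The spread is estimated over the 3 groups, so 12 h replicate 2 bears on this comparison. Without it, 9 of 10 members passed 0.05, where 27.9% of all genes did, and a fit of the 24 h and DMSO samples alone gave 8 of 10, where 23.6% did. Without DMSO replicate 1 there were 3 members (7.03% of all genes), and without each other library 0 (0.0224% to 2.66%).

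AURKA had 101, 115 and 106 CPM after 24 h and gave 1.56 ± 0.36 (SE, adjusted p = 0.0522), or 1.56 ± 0.31 (SE, adjusted p = 0.00643) without 12 h replicate 2. DLGAP5 had 122, 144 and 128 CPM and gave 1.31 ± 0.47 (SE, adjusted p = 0.158), or 1.31 ± 0.40 (SE, adjusted p = 0.0335). TACC3 had 206, 207 and 198 CPM and gave 1.34 ± 0.49 (SE, adjusted p = 0.159), or 1.34 ± 0.30 (SE, adjusted p = 0.0103). All 24 h samples of these 3 genes lay above the DMSO samples, as they did for 9 of 10 members, while NUMA1 lay below them, compared with 23.1% and 21.6% of all genes. Without 12 h replicate 2, TPX2 gave 1.36 ± 0.26 (SE, adjusted p = 0.00528). NUSAP1 gave 1.29 ± 0.37 (SE, adjusted p = 0.0939), or 1.29 ± 0.26 (SE, adjusted p = 0.00618) without that library, and HMMR 1.12 ± 0.41 (SE, adjusted p = 0.165), or 1.12 ± 0.33 (SE, adjusted p = 0.0301). ASPM gave 1.20 ± 0.42 (SE, adjusted p = 0.151), or 1.20 ± 0.24 (SE, adjusted p = 0.00589), and CKAP2 0.73 ± 0.30 (SE, adjusted p = 0.211), or 0.74 ± 0.19 (SE, adjusted p = 0.0163). CKAP5 gave 0.32 ± 0.17 (SE, adjusted p = 0.323), or 0.33 ± 0.10 (SE, adjusted p = 0.0282), and NUMA1 -0.13 ± 0.25 (SE, adjusted p = 0.827), or -0.13 ± 0.08 (SE, adjusted p = 0.249).

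Between 12 h and 24 h in LNCaP, the log2 differences of the members lay between -0.90 and -0.01 with all libraries. This range and its direction rested in part on 12 h replicate 2. TACC3, at -0.90, had 681 CPM in that library and a mean of 230.4 in the other 12 h libraries. After 24 h it had 206, 207 and 198 CPM. NUMA1, at -0.29, had 1022 CPM in that library and a mean of 513 in the others. Its 24 h samples had 589, 532 and 557 CPM. edgeR called 0 of the members and 0.0% of all genes, and 0 of the members and 6.36% of all genes had an unadjusted p below 0.05. limma voom, the DESeq2 Wald test and the fit without 12 h replicate 2 called 0 as well, where they called 1.44%, 0.0076% and 0.0% of all genes.

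**Figure D3:**
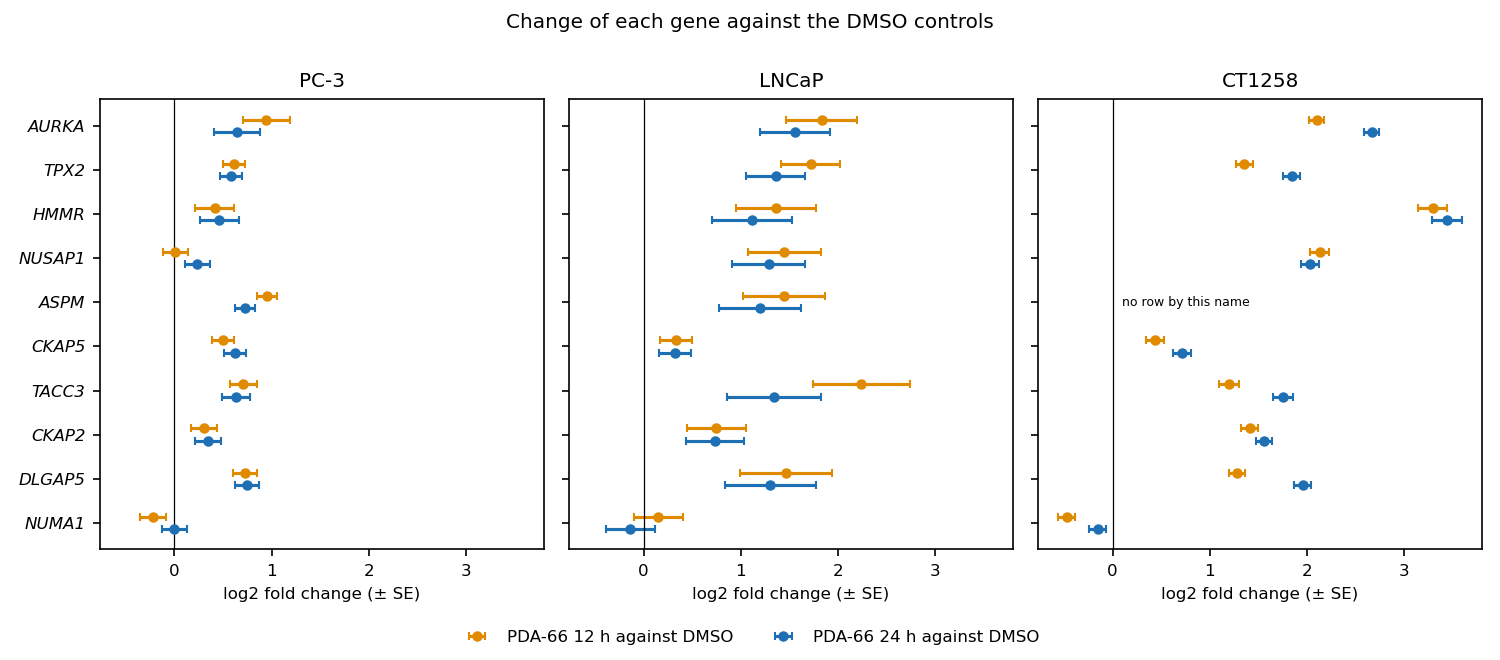
Log2 fold changes of each member against DMSO after 12 h and 24 h in PC-3, LNCaP and CT1258, with bars for 1 SE. HMMR in CT1258 stands highest at 3.30 and 3.44, and NUMA1 lies near 0 or below it apart from 0.15 in LNCaP after 12 h.

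In CT1258, the 12 h values are a description, since this comparison put HMMR on the list. HMMR had 111, 111 and 105 CPM after 12 h and 12.2, 8.16 and 12.9 CPM in DMSO, a log2 fold change of 3.30 ± 0.15 (SE). The next largest rises of all genes were CCNB1 with 3.01, Q0QEY4_CANFA with 3.01 and MCTP1 with 2.95. AURKA had 107, 106 and 107 CPM compared with 24.2, 25.6 and 24.8, a log2 fold change of 2.10 ± 0.08 (SE). NUSAP1 had 51.7, 54.8 and 50.5 CPM compared with 12.1, 12.1 and 11.6, a change of 2.13 ± 0.09 (SE). The groups lay far apart in these 3 genes. CKAP2 gave 1.41 ± 0.09 (SE), TPX2 1.36 ± 0.09 (SE), DLGAP5 1.28 ± 0.08 (SE), TACC3 1.20 ± 0.10 (SE), CKAP5 0.44 ± 0.09 (SE) and NUMA1 -0.47 ± 0.09 (SE). The 12 h samples of 8 members lay above DMSO and those of NUMA1 below it, in a comparison in which 44.3% of the 9886 genes were called, and nothing is read from this. The entry ASPM_CANFA, which the choice by symbol leaves out, gave 2.28 ± 0.17 (SE).

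After 24 h, the kinase, its activator and 5 of its partners rose in CT1258. Of the 8 members tested, that is without HMMR, 7 were called higher and 0 lower, where 33.8% of all genes were called, and their median log2 fold change was 1.80. AURKA had 154, 159.9 and 161 CPM, compared with the DMSO values of about 24.9 CPM, a log2 fold change of 2.67 ± 0.08 (SE, adjusted p = 4.86e-11). TPX2 had 592, 591 and 643 CPM compared with 171, 151 and 185, a change of 1.85 ± 0.09 (SE, adjusted p = 2.81e-09). These 2 rises were many times the spread of the samples, with no overlap. TACC3 had 231, 246 and 247 CPM compared with 65.3, 85.5 and 63.5, a change of 1.76 ± 0.11 (SE, adjusted p = 2.02e-08).

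DLGAP5 had 306, 347 and 363 CPM after 24 h compared with 87.6, 90.1 and 83.7, a log2 fold change of 1.96 ± 0.09 (SE, adjusted p = 1.17e-09). NUSAP1 had 49.0, 47.2 and 50.9 CPM, a change of 2.04 ± 0.09 (SE, adjusted p = 1.78e-09), and CKAP2 had 150.1, 163 and 164 CPM compared with 54.9, 50.0 and 56.4, a change of 1.56 ± 0.09 (SE, adjusted p = 8.15e-09). Each of these genes separated PDA-66 from DMSO with no overlap. CKAP5 rose less, with 410.1, 421 and 445 CPM compared with 268, 221 and 287 and a change of 0.72 ± 0.09 (SE, adjusted p = 2.19e-05). NUMA1 had 743, 695 and 666 CPM compared with 802, 709 and 827 and was not called (-0.15, adjusted p = 0.139). HMMR, given without a test, had 102, 126 and 134 CPM and a log2 fold change of 3.44 ± 0.15 (SE), and ASPM_CANFA gave 2.56 ± 0.18 (SE, adjusted p = 6.14e-08). The deeper DMSO libraries cannot be told apart from the group. With their counts thinned to the depth of the PDA-66 libraries 7 of 8 members were called, where 33.5% of all genes were.

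The level went on rising between 12 h and 24 h in CT1258 for AURKA, with a log2 difference of 0.57 ± 0.07 (SE, adjusted p = 0.000234), and for DLGAP5, with 0.68 ± 0.08 (SE, adjusted p = 0.00015). These were 2 of 8 members, where 2.13% of all genes were called, and the members' median was 0.40. TACC3 (0.56 ± 0.10 SE, adjusted p = 0.00243), TPX2 (0.49 ± 0.09 SE, adjusted p = 0.00208) and NUMA1 (0.32 ± 0.09 SE, adjusted p = 0.0206) missed the threshold. CKAP5 gave 0.28 ± 0.09 (SE, adjusted p = 0.0541), CKAP2 0.15 ± 0.08 (SE, adjusted p = 0.232) and NUSAP1 -0.10 ± 0.09 (SE, adjusted p = 0.497), and HMMR 0.15 with no test. These calls depended on single libraries, with 0 members called without any 1 of the 12 h libraries or without 24 h replicate 2 or 3 (0.201% to 0.814% of all genes), 1 without 24 h replicate 1 (0.704%) and 6 without DMSO replicate 2 (13.6%).

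To learn whether the lines differed in their response, the differences between the responses were tested in joint fits over genes listed in the tables compared, with an adjusted p below 0.05 as the threshold. After 12 h, the rise of NUSAP1 was larger in LNCaP than in PC-3 by 1.39 ± 0.44 (SE, adjusted p = 0.0458) on the log2 scale. That was 1 of 10 members, where 13.7% of the 15018 genes were called. The count of members changed with the test, the filter and the scaling, as given at the end. TPX2 (1.05 ± 0.35 SE, adjusted p = 0.0538) and TACC3 (1.48 ± 0.56 SE, adjusted p = 0.0873) missed the threshold. The TACC3 difference rested in part on LNCaP 12 h replicate 2, which held 2.95 times the mean TACC3 CPM of the other 12 h libraries. For AURKA the difference was 0.84 with a 95% interval of -0.11 to 1.78. The call of NUSAP1 was lost in 14 of the 17 fits that left out 1 library, with adjusted p-values of up to 0.172 and differences between 1.08 and 1.69. Without LNCaP DMSO replicate 1, 5 members and 15.8% of all genes were called. Without LNCaP 12 h replicate 2, NUSAP1, TPX2 and ASPM were called, where 24.3% of all genes were, with differences of 1.69, 0.94 and 0.83.

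After 24 h, the responses of LNCaP and PC-3 differed by between -0.33 and 1.02, with 0 of 10 members called by edgeR, where 5.99% of all genes were. Of the members, 2 of 10 had an unadjusted p below 0.05, compared with 20.2% of all genes, and limma voom called 5 and the DESeq2 Wald test 0, where they called 19.5% and 9.79% of all genes. NUSAP1 had the difference of 1.02 and was called without LNCaP 12 h replicate 2 (adjusted p = 0.0242), where 20.9% of all genes were called, and 2 members were called without LNCaP DMSO replicate 1, where 8.59% were.

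The canine line responded more strongly than PC-3 after 24 h in 4 of 8 members, where 21.2% of the 11736 shared genes were called. The rise was larger by 2.04 ± 0.40 (SE, adjusted p = 0.000838) for AURKA, 1.81 ± 0.38 (SE, adjusted p = 0.0014) for NUSAP1, 1.27 ± 0.29 (SE, adjusted p = 0.00303) for TPX2 and 1.23 ± 0.32 (SE, adjusted p = 0.00695) for CKAP2. DLGAP5 (1.22 ± 0.45 SE, adjusted p = 0.0565) and TACC3 (1.13 ± 0.47 SE, adjusted p = 0.0889) missed the threshold. The difference was 0.10 for CKAP5, with a 95% interval of -0.28 to 0.48, and -0.14 for NUMA1, with -0.65 to 0.36. Leaving out each of the 26 libraries gave 3 to 6 members and 13.0% to 35.9% of all genes, both highest without LNCaP 12 h replicate 2. AURKA, NUSAP1 and TPX2 were called in all 26 fits and CKAP2 in 25, lost without PC-3 DMSO replicate 3.

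Compared with LNCaP, the 24 h rise in CT1258 was larger for AURKA by 1.13 ± 0.39 (SE, adjusted p = 0.0378) and for CKAP2 by 0.86 ± 0.30 (SE, adjusted p = 0.0435), 2 of 8 members, where 21.1% of all genes were called. TPX2 differed by 0.51 ± 0.28 (SE, adjusted p = 0.205) and NUSAP1 by 0.77 ± 0.36 (SE, adjusted p = 0.136). The calls were not firm. Of 26 fits that each left out 1 library, 19 called no member and the others between 1 and 5, with 5 reached without LNCaP DMSO replicate 3 (18.8% of all genes) and 4 without LNCaP 12 h replicate 2 (36.5%). AURKA was called in 7 fits, with differences between 0.49 and 1.46, and CKAP2 in 4. In 16 of the fits TMM took a LNCaP library as its reference instead of a CT1258 library, and 13 of these called no member, as did 6 of the 10 that kept a CT1258 library. With PC-3 12 h replicate 3 left out, which does not enter the comparison, AURKA was 1.04 and CKAP2 0.77. With TMM within each line, an alternative chosen after seeing the data, 2 members were called, where 21.1% of all genes were. The lines differ in species, genome and read aligner, and these cannot be told apart from the response of the cells. After 12 h, HMMR had a log2 fold change of 3.30 in CT1258, 1.37 in LNCaP and 0.41 in PC-3, and AURKA one of 2.10, 1.84 and 0.95, given side by side without a test.

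Genes that act with the members were described as 6 lists, chosen with earlier results of these data known. In PC-3 after 12 h, where 27.6% of all genes were called in either direction, 6 of 8 genes of the Ran and importin cycle, which frees TPX2, were called higher and 0 lower, with a median log2 fold change of 0.79. RANGAP1, which makes Ran hydrolyse GTP, rose by 1.09 ± 0.13 (SE, adjusted p = 1.33e-05) and CSE1L, which exports importin alpha, by 0.95 ± 0.11 (SE, adjusted p = 1.51e-05). Of 18 spindle pole and microtubule partners, 6 were called higher and 0 lower (median 0.46), among them GTSE1 with 1.22 ± 0.12 (SE, adjusted p = 2.57e-06) and GPSM2, which anchors NUMA1 at the cortex, with 0.77 ± 0.10 (SE, adjusted p = 4.10e-05). Of 16 genes of augmin and the gamma-tubulin ring complex, which branch and nucleate microtubules, 6 were called higher and 1 lower (median 0.39), with NEDD1 at 1.33 ± 0.13 (SE, adjusted p = 2.32e-06) and HAUS2 at 1.27 ± 0.13 (SE, adjusted p = 3.48e-06).

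Of 13 regulators of G2/M transcription in PC-3 after 12 h, 5 were called higher and 1 lower (median 0.40), with MYBL2 at 1.45 ± 0.10 (SE, adjusted p = 1.02e-07) and FOXM1 at 1.15 ± 0.11 (SE, adjusted p = 1.47e-06). Of 11 regulators of Aurora A, 2 were called higher and 1 lower (median 0.10). The 2 were AJUBA, which binds and activates the kinase (1.25 ± 0.13 SE, adjusted p = 3.12e-06), and CDC20, which helps to mark mitotic proteins for degradation (1.29 ± 0.26 SE, adjusted p = 0.00092). Of 6 tested relatives of the members, CKAP2L was called higher (0.76 ± 0.11 SE, adjusted p = 4.54e-05) and TACC2 lower (-1.10 ± 0.09 SE, adjusted p = 6.80e-07). AJUBA did not rise in the other lines. In LNCaP it gave -0.64 ± 0.24 (SE, adjusted p = 0.123) after 12 h and -0.98 ± 0.24 (SE, adjusted p = 0.0647) after 24 h. In CT1258 it gave -0.71 ± 0.08 (SE) after 12 h and -0.20 ± 0.08 (SE, adjusted p = 0.0361) after 24 h.

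In CT1258 after 24 h, where 33.8% of all genes were called in either direction, 10 of 15 spindle pole and microtubule partners were called higher and 1 lower (median 1.03), led by the motor KIF11 with 2.26 ± 0.09 (SE, adjusted p = 7.80e-10) and GTSE1 with 1.86 ± 0.08 (SE, adjusted p = 1.60e-09). Of 7 genes of the Ran and importin cycle, 3 were called higher and 0 lower (median 0.21), with CSE1L at 0.84 ± 0.08 (SE, adjusted p = 8.68e-07) and the exportin XPO1 at 0.80 ± 0.10 (SE, adjusted p = 2.09e-05). The augmin and gamma-tubulin list had 5 higher and 1 lower of 15 (median 0.25), with HAUS6 at 1.15 ± 0.12 (SE, adjusted p = 2.64e-06) and NEDD1 at 1.12 ± 0.09 (SE, adjusted p = 2.69e-07). Among the 9 Aurora A regulators, 3 were called higher and 2 lower (median -0.0020). BORA, a cofactor in Aurora A activation, rose by 1.43 ± 0.12 (SE, adjusted p = 5.95e-07), and FZR1, which targets Aurora A for degradation, was lower at -1.30 ± 0.12 (SE, adjusted p = 7.29e-07).

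Among 12 regulators of G2/M transcription in CT1258 after 24 h, 6 were called higher and 1 lower (median 0.40), with LIN9 at 1.27 ± 0.12 (SE, adjusted p = 9.59e-07) and FOXM1 at 1.09 ± 0.09 (SE, adjusted p = 2.61e-07). Of 6 tested relatives, 3 were called higher and 1 lower, with CKAP2L at 2.58 ± 0.09 (SE, adjusted p = 5.38e-10) and AURKB at 0.92 ± 0.16 (SE, adjusted p = 0.000194). In LNCaP after 12 h, 9 of 18 spindle pole partners, 3 of 8 Ran and importin genes, 5 of 16 augmin and gamma-tubulin genes, 4 of 11 Aurora A regulators, 2 of 5 relatives and 2 of 13 transcription regulators had an adjusted p below 0.05, compared with 9.14% of all genes. All of these were higher except 1 Aurora A regulator. The medians of the lists were 1.06, 0.89, 0.45, 0.17, 0.71 and 0.38. Over 18 alternatives, that of the relatives (0.71) ranged from -0.32 to 0.89, so its sign changed. Without 12 h replicate 2, where 29.1% of all genes passed, these counts were 13, 5, 12, 6, 4 and 6, of which 1 augmin or gamma-tubulin gene, 2 Aurora A regulators and 1 relative were lower, and the medians 1.19, 0.70, 0.65, 0.15, 0.89 and 0.43.

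**Figure D4:**
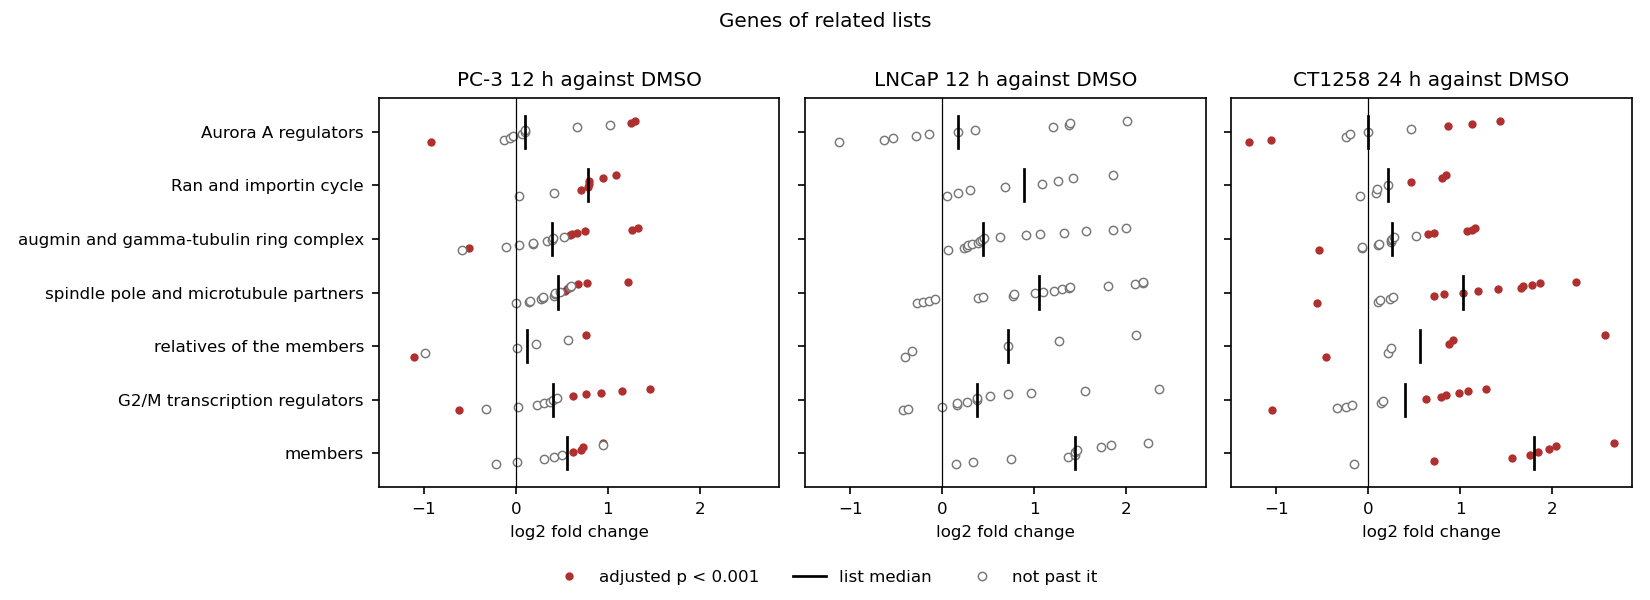
Log2 fold changes of single genes of the 6 lists and of the members in PC-3 after 12 h, LNCaP after 12 h and CT1258 after 24 h, with filled points for an adjusted p below 0.001, black bars for the median of a list, and HMMR left out of CT1258. In CT1258 the members (median 1.80) and the spindle pole and microtubule partners (median 1.03) lie highest.

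The genes whose 6 log2 fold changes lay closest to the median of 9 members (ASPM left out), among 6386 genes tested in all 3 lines, were KIF15, KIF24, BUB1B, PRC1 and NUF2, with root mean square distances of 0.116, 0.129, 0.144, 0.150 and 0.153. TPX2 and DLGAP5 were nearest of the members, at 0.126 and 0.128, and NUMA1 was farthest, ranking 4215 of all genes. These comparisons share DMSO samples, and the distances are a description.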

How the data were processed

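From each sample, poly(A) RNA was read as single reads of 75 bases. According to the study's methods, human reads were aligned with STAR 2.3.1s to HG19 and canine reads with BWA to CanFam3.1, and the authors analysed them with edgeR 3.14.0. The authors deposited whole counts of reads per gene, not normalized. The sources used here do not state how the strand or reads fitting several genes were treated, so overlapping and similar genes are less certain. A list of luminal markers is not reported here. According to the study's methods, the authors excluded 1 PC-3 control as an outlier after multidimensional scaling. The PC-3 counts leave out control replicate 1, so it was not used here. The spread of the PC-3 controls is that of the 2 samples left after this choice. The numbers of 2 PC-3 12 h replicates are not clear from the labels.

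The tests ran in edgeR 4.0.16 under R 4.3.3, with limma 3.58.1 and DESeq2 1.42.0 for alternatives, and Python 3.11.15 made the tables. Each line was fitted with its 3 groups after filterByExpr and TMM, tested with the quasi-likelihood F test and adjusted over all genes by Benjamini-Hochberg, with 0.001 as the threshold. Response differences were tested as interactions in joint fits, with 0.05. SEs come from the log2 fold change and its F value. The tests were checked on simulated data. All 10 members were described. From each related list, up to 2 called genes with the largest log2 fold change, at least 10 CPM and no overlap were named, in PC-3 at 12 h and CT1258 at 24 h, as were the 5 genes most like the members' median. The members, lists and this rule were chosen with earlier results of these data known.

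As alternatives, scaling by DESeq2 size factors or by library size, a filter of 1 CPM in 3 samples or none, the DESeq2 Wald test, edgeR's likelihood ratio test, limma voom with sample weights, fits of the 2 groups compared, a replicate block, other thresholds, thinned CT1258 controls and leaving out each library were tried. TMM within each line was added after seeing the data. Promoters came from RefSeq (GRCh38.p14) and positions from GENCODE (GRCh37).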

Additional observations from a re-analysis of the deposited data

Results flagged for a closer look

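Between lines, 7 responses of members differed in the test of the difference itself, the edgeR interaction test with an adjusted p below 0.05. They were 1 of 10 members for LNCaP and PC-3 after 12 h, where 13.7% of all genes were called, and 0 of 10 after 24 h, where 5.99% were. For CT1258 after 24 h they were 4 of 8 compared with PC-3 and 2 of 8 compared with LNCaP, where 21.2% and 21.1% of all genes were called. NUSAP1 rose more in LNCaP than in PC-3 after 12 h, by 1.39 on the log2 scale, and this call was lost in 14 of the 17 fits that left out 1 library. After 24 h, the rise in CT1258 exceeded that in PC-3 by 2.04 for AURKA, 1.81 for NUSAP1, 1.27 for TPX2 and 1.23 for CKAP2. It exceeded that in LNCaP by 1.13 for AURKA and by 0.86 for CKAP2, which were called in 7 and 4 of 26 such fits. Aligner, genome and species differ between CT1258 and the human lines in the same way, and their part in these differences cannot be told apart from that of the cells.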

How the results depend on the processing

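The members' values gave 1679 results under alternatives. Of these, 1463 kept their direction and side of the threshold, 83 passed it newly, 115 lost it, 17 changed sign and 1 moved, NUSAP1 in CT1258 after 12 h, which was 2.31 with thinned controls. The cause was not tested unless the setting itself gives it.

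Shares of all genes called with the same setting stand in brackets. In PC-3 after 12 h, 4 members were called (27.6%), and 0 when a log2 fold change of 1 or more was required as well (14%). After 24 h, 3 were called (19.3%), 5 with the DESeq2 Wald test (25.9%), the likelihood ratio test (30.6%) or no filter (15.4%), 7 at 0.05 (49.9%), 1 with only the 2 groups compared (12.2%) and 0 with a log2 fold change of at least 1 (8.87%). Between the times, voom called 1 (16.8%). In LNCaP after 12 h, 0 were called, 3 with the Wald (4.71%) or likelihood ratio test (4.34%), 8 with voom (13.9%) and 4 at 0.05 (9.14%), and after 24 h 0, with 8 by voom (11.2%) and 1 at 0.05 (2.92%). In CT1258 between 24 h and 12 h, 2 were called (2.13%), 4 with the Wald test (6.71%), the likelihood ratio test (7.38%) or only the 2 groups (12.0%), 6 with voom (21%), 5 at 0.05 (19.3%) and 0 with a log2 fold change of at least 1 (0.445%). For the DMSO comparison of LNCaP and PC-3, library size only gave 1 instead of 2 (40.8% in both).

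For LNCaP minus PC-3 after 12 h, 1 was called (13.7%), 3 with the Wald (18.8%) or likelihood ratio test (17.7%), 8 with voom (25.0%), 2 with no filter (8.91%) or TMM within each line (13.9%), and 0 at 0.001 (1.53%) or with library size only (13.5%). After 24 h, voom called 5 (19.5%) instead of 0 (5.99%). For CT1258 minus PC-3, 4 were called (21.2%) and 1 at 0.001 (4.79%). For CT1258 minus LNCaP, 2 were called (21.1%), 1 with a log2 difference of at least 1 (10.1%) and 0 at 0.001 (3.44%) or with no filter (16.6%).

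Leaving out 1 library at a time gave 1 to 6 members in PC-3 after 12 h (18% to 30.9%), 1 to 5 after 24 h (11.3% to 24.3%) and 0 to 0 between the times (0.429% to 3.55%). LNCaP gave 0 to 0 in all 3 comparisons at 0.001, with up to 1.96% of all genes. CT1258 gave 7 to 7 after 24 h (21.2% to 46.6%) and 0 to 6 between the times (0.201% to 13.6%). The DMSO comparison gave 0 to 3 (29.1% to 56.9%). LNCaP minus PC-3 gave 0 to 5 after 12 h (6.47% to 24.3%) and 0 to 2 after 24 h (2.75% to 20.9%), CT1258 minus PC-3 3 to 6 (13.0% to 35.9%), and CT1258 minus LNCaP 0 to 5 (14.6% to 36.5%).

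NUMA1 in LNCaP after 12 h reversed to -0.19 with voom and -0.25 without 12 h replicate 2, with 0.35 as the other end of the leave-one-out fits. In PC-3 after 12 h it reversed to 0.040 without DMSO replicate 2 (leave-one-out fits -0.43 to 0.040). After 24 h, where it was near 0, it turned positive with DESeq2 size factors and the Wald test (0.00137 and 0.00139), library size only (0.079), no filter (0.031), only the 2 groups (0.015) and the replicate block (0.073), and leave-one-out fits gave -0.20 to 0.26 (0.014 without 1 of the 12 h libraries). NUSAP1 in PC-3 after 12 h turned to -0.011 with the 1 CPM filter and -0.0028 with voom, and ranged from -0.12 to 0.17 in leave-one-out fits (-0.035 without 1 of the 12 h libraries).

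Of 22 pairs of samples with the same number, 3 had a correlation of deviations over 0.1 (range -0.477 to 0.262). Deviations from the mean of so few samples depend on each other. These values therefore cannot show whether samples with the same number were prepared together. With the replicate block, 2 members were called in PC-3 after 24 h (11.4%). That fit also left out the 12 h samples, since 2 of their columns carry no clear number, so both choices changed at once, and without the block those samples gave 1. In it AURKA was gained (adjusted p = 9.59e-05) and ASPM (0.00335) and CKAP5 (0.00597) were lost, and 1 was called in CT1258 between the times (1.34%), where AURKA was lost (0.00127). At 0.05 in LNCaP, the block gave 2 members instead of 4 after 12 h (3.08%) and 0 instead of 1 after 24 h (0.122%), where TPX2 was lost (0.0879).

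The lowest level of a member, that of HMMR in a CT1258 control, was 8.16 CPM. Depth was varied only by thinning the CT1258 controls, where NUSAP1 after 12 h moved from 2.13 to 2.31. The counts of the related lists moved too, in PC-3 after 12 h to between 2 and 10 called higher for the spindle pole partners (6), 3 and 6 for augmin and gamma-tubulin (6) and 4 and 7 for the Ran cycle (6), while 18% to 38.8% of all genes were called in either direction. In CT1258 after 24 h, these were 10 to 10 (10), 4 to 8 (5) and 2 to 4 (3), with 21.2% to 54.9% of all genes. The Aurora A regulators, relatives and transcription regulators gave 1 to 3 (2), 1 to 2 (1) and 4 to 5 (5) in PC-3 after 12 h. The same lists gave 3 to 4 (3), 2 to 4 (3) and 4 to 6 (6) in CT1258 after 24 h.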
